A study of Mus musculus with 29 samples.

Results

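Of the 18834 genes counted in the deposited files, 35 are known above all from T cells and natural killer (NK) cells, and their RNA was followed through 29 libraries of sorted mouse megakaryocyte-erythrocyte progenitors (MEPs), bone marrow cells from which red cells and platelets arise. The 35 genes came from a list of symbols matched to the Entrez identifiers of the files. All 35 were found, and all 35 were among the 13928 genes that passed the filter on low counts. They were split by textbook role into 8 T-restricted genes, 10 NK-restricted and cytotoxic genes, 9 genes shared by T and NK cells, and 8 genes that are also used by progenitors, innate lymphoid cells or other cells. Of the 35, 10 (Il2rb, Ccl5, Tcf7, Cd7, Id2, Ablim1, Cd27, Cd3e, Cd5 and Bcl11b) had been singled out in an earlier analysis of these same counts, so their direction is not independent evidence. The other 25 had not, and counts are given for them as well. They come from the same libraries, and the list was chosen with earlier results known, so they are not independent evidence either.

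The study compared MEPs that had lost 1 or 2 alleles of Ezh2, which encodes the enzyme of PRC2 that methylates histone H3, with and without JAK2 V617F, a mutation of myeloproliferative neoplasms that leaves the kinase active. The design text names SclCre, a Cre recombinase, for all 6 groups, the controls included. The sample labels spell it ScleCre in the 13 libraries without V617F and SclCre in the 16 with it, and whether both are the same transgene is not stated there, so the spelling and V617F cannot be told apart. Without V617F there were 5 Ezh2 +/+ libraries (control, 2 male and 3 female), 4 Ezh2 +/- libraries (2 male and 2 female) and 4 Ezh2 -/- libraries (1 male and 3 female). With JAK2 V617F there were 4 Ezh2 +/+ libraries (called V617F here, 1 male and 3 female), 6 Ezh2 +/- libraries and 6 Ezh2 -/- libraries, and these 12 were all female. Not given in the sources used here were age, gates, dates, the deleted part of Ezh2 and any induction of the Cre. The labels number the libraries of a group as replicates without saying that they came from separate animals, so a p-value here measures spread between libraries, which may be technical.

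T cells recognise peptides through the T cell receptor, whose signal leaves the cell surface through the CD3 chains and the zeta chain and is passed on by the kinases LCK and ZAP70. NK cells carry no such receptor and kill through granules of perforin and granzymes under the control of activating and inhibitory receptors, and they depend on interleukin 15, on the T-box factors Eomes and T-bet and on the inhibitor Id2. MEPs are sorted as cells without mature lineage markers. In bulk RNA, fewer cells of a type and less RNA per cell cannot be told apart.

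The promoters of a pair of T cell receptor genes and a pair of NK receptor genes are shown because Cd3d and Cd3e fell in Ezh2 -/- MEPs while Ncr1 and Klrk1 did not pass, and because a short motif was found on one side and not on the other. Each runs 5′ to 3′ on the gene's own strand from 250 bases before to 50 bases after a transcript start listed by RefSeq (GRCm38.p6), and the capitals mark the RUNX core TGTGGT or its reverse complement ACCACA. Cd3d lies on the plus strand (promoter chr9:44981536-44981835) and Cd3e on the minus strand (chr9:45009562-45009861) of the Cd3 gene cluster. Ncr1 lies on the plus strand (chr7:4337465-4337764) and Klrk1 on the minus strand (chr6:129623815-129624114).
Cd3d: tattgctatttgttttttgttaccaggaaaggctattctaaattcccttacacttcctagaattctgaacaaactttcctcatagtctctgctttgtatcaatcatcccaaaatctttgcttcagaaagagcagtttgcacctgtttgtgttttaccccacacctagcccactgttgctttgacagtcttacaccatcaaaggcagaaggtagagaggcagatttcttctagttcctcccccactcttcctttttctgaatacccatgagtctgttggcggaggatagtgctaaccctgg
Cd3e: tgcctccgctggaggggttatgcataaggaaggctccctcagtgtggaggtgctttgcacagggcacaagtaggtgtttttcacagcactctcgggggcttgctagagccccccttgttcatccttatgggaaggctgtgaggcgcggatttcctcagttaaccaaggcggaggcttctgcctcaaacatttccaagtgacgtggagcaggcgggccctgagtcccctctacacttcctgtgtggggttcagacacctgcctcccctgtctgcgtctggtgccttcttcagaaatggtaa
Ncr1: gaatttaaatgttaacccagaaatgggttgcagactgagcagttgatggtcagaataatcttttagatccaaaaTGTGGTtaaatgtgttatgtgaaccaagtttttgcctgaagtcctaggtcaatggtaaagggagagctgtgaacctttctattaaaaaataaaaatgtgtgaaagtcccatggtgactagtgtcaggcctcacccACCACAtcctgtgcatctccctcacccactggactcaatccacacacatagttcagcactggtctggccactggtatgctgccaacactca
Klrk1: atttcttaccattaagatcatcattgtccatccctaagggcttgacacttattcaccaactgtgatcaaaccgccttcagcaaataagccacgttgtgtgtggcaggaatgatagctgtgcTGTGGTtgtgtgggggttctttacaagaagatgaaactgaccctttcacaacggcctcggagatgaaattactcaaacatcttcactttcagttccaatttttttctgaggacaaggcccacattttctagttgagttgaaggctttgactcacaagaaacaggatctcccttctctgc

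A RefSeq promoter was available for 27 of the 35 genes. The RUNX core was present in the promoters of 7 of 9 NK-restricted and cytotoxic genes (Gzma, Gzmb, Klrk1, Ncr1, Nkg7, Prf1 and Xcl1) and of 0 of 6 T-restricted genes, and in 16.9% of all 27025 promoters. It was also found in 1 of 4 shared promoters (Lck) and in 1 of 8 promoters of the wider group (Il7r). Ncr1 and Gzmb held 2 matches each. Nkg7 and Gzmb, put in that role by textbook and lower in Ezh2 -/-, carried the core. Eomes and Tbx21, which did not pass there, did not carry it. Within that role the core thus did not separate genes that fell from genes that did not pass. Beside it, 4 other motifs were searched on both strands. The ETS core GGAA was present in 25 of the 27 promoters and 95.9% of all, the TCF core CTTTGA in 7 and 16.2% of all, the T-box core GGTGTG in 8 and 19% of all, and the GATA core AGATAA in 1 and 11.4% of all. These are matches of letters in one window per gene. Binding at these sites was not measured.

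Libraries held 31.6 to 59.4 M counts (median 44.6 M), and 3 counts correspond to 0.0505 to 0.095 CPM (counts scaled by library size, the unit used throughout) in a single library, before scaling factors. These floors cover counting error only. Ezh2 RNA followed the labels, with 269 to 319 CPM in controls, 188 to 197 CPM in Ezh2 +/- and 67.9 to 79.5 CPM in Ezh2 -/-, and with V617F 244 to 313, 148 to 205 and 51.2 to 59.5 CPM in the same order. The erythroid factors Gata1 (184 to 298 CPM) and Klf1 (151 to 338 CPM) and the receptor Kit (378 to 623 CPM), which MEPs carry, were found in all 29 libraries. Against these 3, the 4 defining T cell markers Cd3d, Cd3e, Cd3g and Cd5 summed to 0.591 to 16.4 CPM. The 4 defining NK cell markers Ncr1, Klrb1c, Klrd1 and Eomes summed to 1.38 to 28.1 CPM. The libraries were less even in other markers. The progenitor antigen Cd34 ran from 0.384 to 62.2 CPM and the sum of granulocyte markers from 21.4 to 1789.7 CPM. Cd8b1 had 21 counts over all libraries and was at 0 in 15 of 29. Ptcra, the pre-T cell receptor chain of thymocytes, had 20 counts and was at 0 in 17.

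Several libraries stood apart. Control replicate 5 was the highest control for 34 of the 35 genes, and it held 42.7 CPM of the progenitor antigen Cd34 against 1.16 to 3.59 CPM in the other controls. In Ezh2 -/- without V617F, Cd34 was at 0.384 to 0.721 CPM, below every control. The progenitor marker Flt3 was at 0.403 to 0.721 CPM there and at 1.93 to 13.2 CPM in controls. With V617F, Cd34 was at 6.73 to 22.9 CPM in Ezh2 +/+, 6.18 to 62.2 CPM in Ezh2 +/- and 10.5 to 30.4 CPM in Ezh2 -/-. These values with V617F lay above all controls but replicate 5. The part of Cd34 and Flt3 in the results was not tested. Like control replicate 5, Ezh2 +/- replicates 2 and 5 were high in Cd34, with 36.6 and 35.5 CPM against 0.857 and 1.63 CPM in replicates 1 and 4. Between them, replicates 2 and 5 were highest in their group for all 35 genes. The male Ezh2 -/- replicate 4 was highest in its group for 25 genes, and V617F replicate 1 for 24. In V617F Ezh2 -/-, replicate 1 was lowest for 28 genes and replicate 2 highest for 27. In controls both males lay below all 3 females for 17 of 35 genes, where 12.8% of all genes did so. In Ezh2 +/- both males lay below both females for 34 of 35, against 25.1% of all genes. The 2 female Ezh2 +/- libraries are replicates 2 and 5, so sex and high Cd34 cannot be told apart there. Control replicate 5 is female too. The sex term of the model was negative for 34 of the 35 genes (median log2 -0.58), but 0 passed the edgeR test, with 12 at an unadjusted p under 0.05. DESeq2 was not run for this term, which was looked at after the data were seen. Over all genes 0.0503% were called for sex. The genotype groups differ in sex, which is why the model carried that term. It is 1 term shared by all groups, while the male Ezh2 -/- replicate 4 lay the other way within its group.

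Levels in controls spanned a wide range. Scaled to the deposited gene length, the mean was highest for Nkg7, a membrane protein of cytotoxic granules, at 47.1 CPM per kb, followed by the chemokine Ccl5 at 28.2, Cd7 at 18.7, Id2 at 10.6 and Il2rb at 10.6 CPM per kb. It was lowest for Bcl11b (0.138 CPM per kb), Themis (0.183) and Ccr9 (0.191). Among receptor chains of the T cell, Cd3g stood at 2.73, Cd3e at 1.83 and Cd3d at 1.44 CPM per kb. All other values given as CPM are not divided by length and compare the same gene between libraries.

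Across the 9 comparisons, JAK2 V617F was the condition under which most of the 35 genes fell. In Ezh2 +/+ MEPs V617F lowered 30 of 35 and raised 0, while 13.9% of all tested genes were lower and 9.73% higher (the quasi-likelihood test of edgeR, with p adjusted over all genes by Benjamini-Hochberg and a threshold of 0.05). In Ezh2 +/- MEPs it lowered 31 and raised 0 against 6.51% lower and 3.35% higher over all genes. In Ezh2 -/- MEPs it lowered 13 and raised 2, with 22.5% of all genes lower and 19.1% higher. Loss of both Ezh2 alleles lowered 11 and raised 0 without V617F against a background of 12.2% lower and 11.5% higher, and lowered 1 and raised 4 with V617F against 13.6% lower and 13% higher, so the 4 genes raised with V617F are a share near the background. The interaction of V617F with Ezh2 -/-, the difference between the V617F effects in Ezh2 -/- and Ezh2 +/+, was above 0 for 9 genes and below 0 for 0, against 8.47% above and 10.6% below over all genes. Of these counts, the 11 was 19 without the male Ezh2 -/- replicate 4 and 6 without control replicate 5 and Ezh2 +/- replicates 2 and 5, which stood apart from their groups in Cd34. The 31 for V617F in Ezh2 +/- was 1 without the same 3 libraries. The 15 for V617F in Ezh2 -/- was 9 without Ezh2 -/- replicate 4, and the 9 of the interaction ran from 1 to 24 with single libraries left out. The comparisons share libraries, those without V617F and Ezh2 loss the 5 controls among others, so their counts are not independent of each other.

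**Figure D1:**
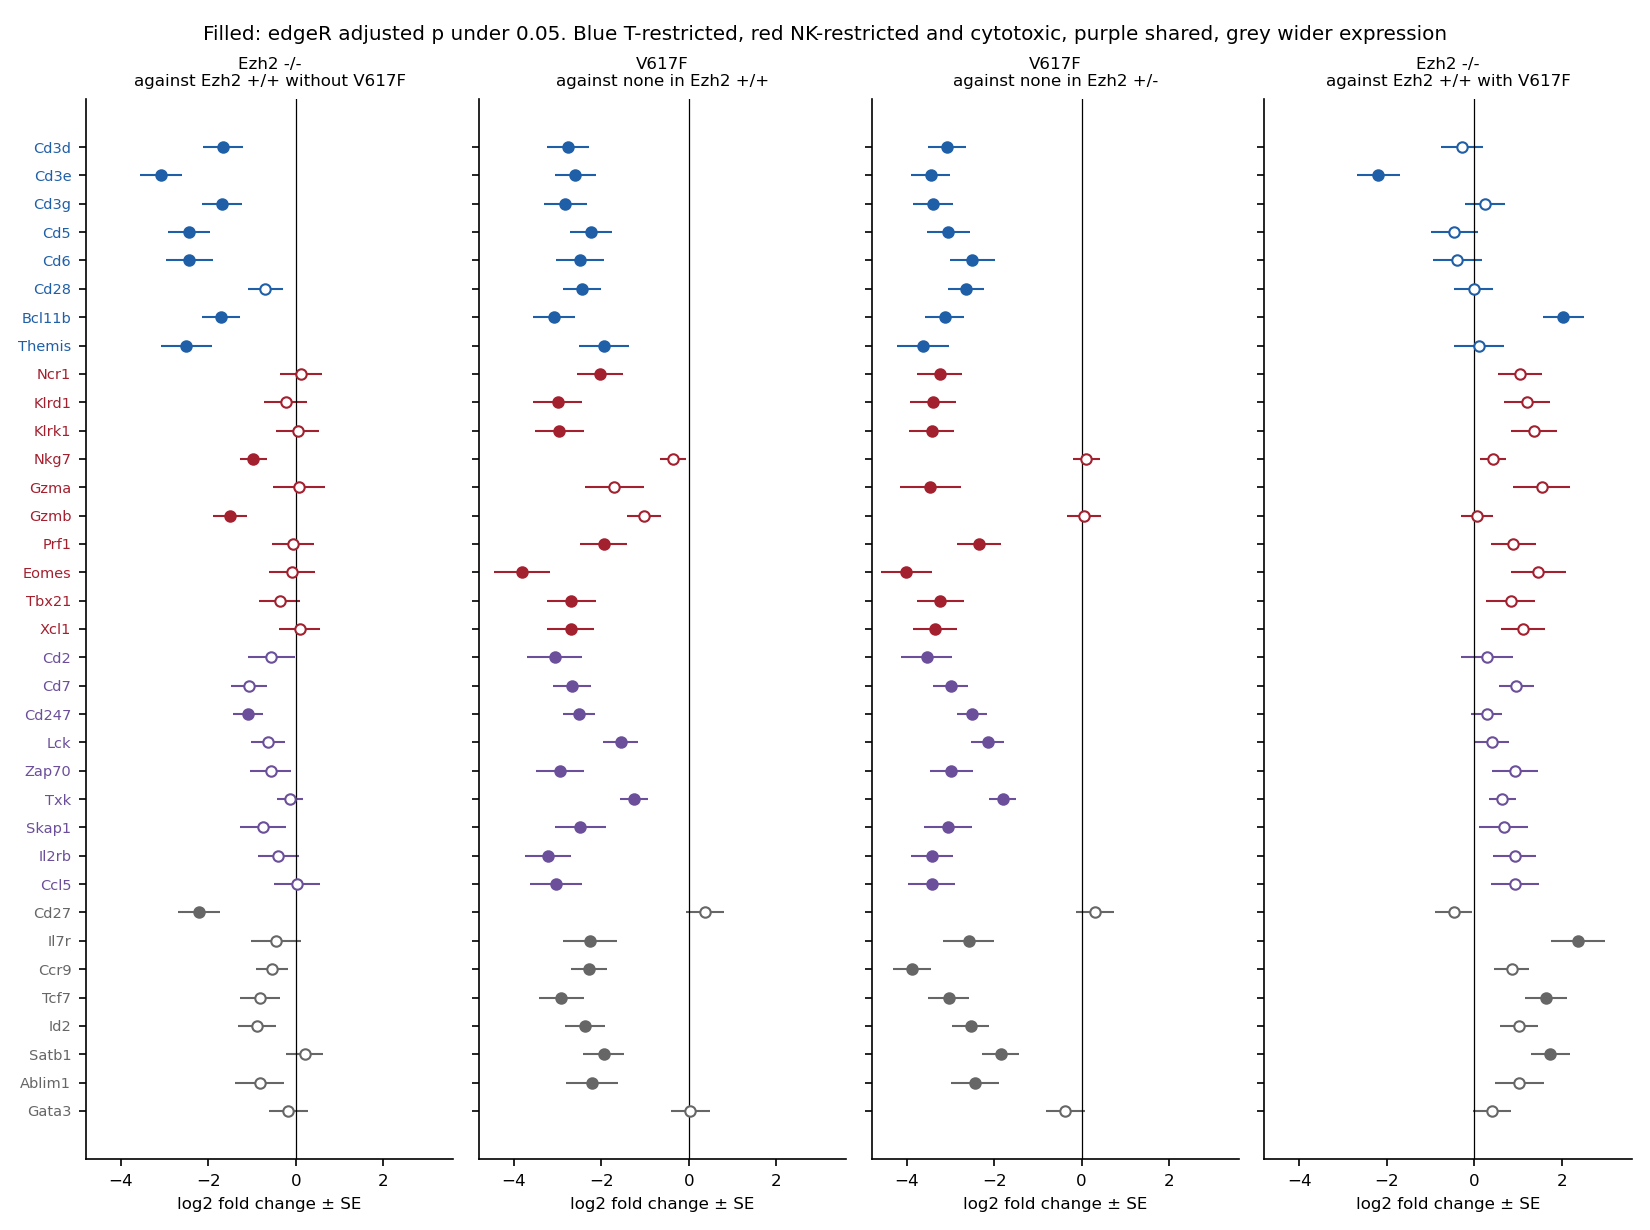
Log2 fold change (x axis) with its standard error for each of the 35 genes (y axis, coloured by role) in 4 comparisons, filled where the edgeR adjusted p was under 0.05. In Ezh2 -/- without V617F (left) 7 of 8 T-restricted genes and 2 of 10 NK-restricted and cytotoxic genes are filled, while with V617F in Ezh2 +/+ and Ezh2 +/- all 8 T-restricted and 7 and 8 of the NK-restricted and cytotoxic genes are.

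Among the 25 genes that had not been singled out earlier, 21 fell with V617F in Ezh2 +/+ MEPs, 22 in Ezh2 +/- and 10 in Ezh2 -/-, where 1 rose. Loss of Ezh2 without V617F lowered 7 of these 25. Over the 35 genes the median log2 fold change was -2.48 for V617F in Ezh2 +/+, -3.05 in Ezh2 +/- and -0.87 in Ezh2 -/-, against 0.01, 0.00 and -0.03 over all tested genes. It was -0.64 for Ezh2 -/- without V617F and 0.85 with it, against -0.01 and -0.00 over all genes. Groups without overlap were counted as well. Every V617F library lay below every control for 26 of 35 genes and above for 0 (10.1% and 5.23% of all genes), and in Ezh2 +/- for 28 and 0 (5.36% and 2.78%). Among Ezh2 -/- libraries those with V617F lay below for 7 genes and above for 2 (18.8% and 19%). Ezh2 -/- lay below control for 10 and above for 0 (11.2% and 11.5%), and with V617F below for 1 and above for 1 (8.09% and 10%).

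The T-restricted genes were low both without Ezh2 and with V617F. In Ezh2 -/- MEPs without V617F 7 of 8 fell, by a median log2 of -2.07 over the 8. Cd3e, the signalling chain that pairs with both other CD3 chains, measured 0.995, 1.56, 2.55, 2.63 and 5.4 CPM in the 5 controls and 0.427, 0.268, 0.146 and 0.365 CPM in Ezh2 -/-. It measured 1.36, 4.61, 1.55 and 3.69 CPM in Ezh2 +/-. The lowest control lay above the highest Ezh2 -/- library, and both males of the Ezh2 +/- group were its lowest. The fold change in Ezh2 -/- was -3.08 ± 0.48 (edgeR adjusted p = 2.99e-05), the lowest adjusted p among the 35 genes in that comparison. With V617F Cd3e measured 0.518, 0.895, 0.218 and 0.251 CPM in Ezh2 +/+, had a lowest value of 0.194, a median of 0.259 and a highest value of 0.69 CPM in Ezh2 +/- and a lowest value of 0.0315, a median of 0.0967 and a highest value of 0.207 CPM in Ezh2 -/-. The 6 V617F Ezh2 -/- libraries held 31 Cd3e counts together and all lay below the 4 V617F libraries. Cd3e was the T-restricted gene that Ezh2 loss lowered with V617F as well (-2.20 ± 0.49, edgeR adjusted p = 0.00217).

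Cd3g, a CD3 chain encoded beside Cd3d on the opposite strand, measured 1.18, 1.2, 3.1, 2.66 and 5.8 CPM in controls and 0.814, 0.577, 0.897 and 0.923 CPM in Ezh2 -/-. The groups did not overlap, and the 2 male controls lay closest to the Ezh2 -/- libraries. Its change was -1.69 ± 0.46 (edgeR adjusted p = 0.00852). With V617F it measured 0.441, 0.895, 0.174 and 0.182 CPM in Ezh2 +/+ and a lowest value of 0.19, a median of 0.643 and a highest value of 0.87 CPM in Ezh2 -/-, which overlapped (0.24 ± 0.46, edgeR adjusted p = 0.736). Cd3d measured 0.707, 0.522, 2.22, 2.49 and 3.62 CPM in controls and 0.692, 0.412, 0.458 and 0.58 CPM in Ezh2 -/-. The 3 female controls lay well above every Ezh2 -/- library, the male control replicate 1 just above them and the male replicate 2 within their range, and the change was -1.67 ± 0.45 (edgeR adjusted p = 0.00883). With V617F Cd3d measured 0.389, 0.532, 0.0871 and 0.205 CPM in Ezh2 +/+ and a lowest value of 0.148, a median of 0.273 and a highest value of 0.539 CPM in Ezh2 -/-. The V617F effect in Ezh2 +/+ was -2.82 ± 0.49 for Cd3g and -2.77 ± 0.48 for Cd3d (edgeR adjusted p = 0.000254 and 0.000267).

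Cd28, the costimulatory receptor, was the T-restricted gene that did not pass in Ezh2 -/-. It measured 1.73, 0.726, 2.42, 2.34 and 3.27 CPM in controls and 0.671, 0.886, 1.1 and 2.08 CPM in Ezh2 -/- (-0.70 ± 0.40, edgeR adjusted p = 0.204). Ezh2 -/- replicates 2, 3 and 4 lay within the range of the controls, the male replicate 4 highest, and replicate 1 lay just below it. With V617F it measured 0.441, 0.363, 0.196 and 0.639 CPM in Ezh2 +/+ and a lowest value of 0.295, a median of 0.439 and a highest value of 0.567 CPM in Ezh2 -/-. Every V617F library lay below every control, and V617F lowered Cd28 in Ezh2 +/+ (-2.43 ± 0.44, edgeR adjusted p = 0.000374) and in Ezh2 -/- (-1.75 ± 0.42, edgeR adjusted p = 0.003). Of the other T-restricted genes, the surface receptor Cd5 measured 0.761 ± 0.461 CPM (SD, n = 5) in controls and 0.141 ± 0.0311 CPM (SD, n = 4) in Ezh2 -/-, a change of -2.44 ± 0.49 (edgeR adjusted p = 0.000625). Its relative Cd6 changed by -2.43 ± 0.54 and Themis, a signalling protein of thymocytes, by -2.50 ± 0.59 (edgeR adjusted p = 0.0018 and 0.00289). For Cd5, Cd6 and Themis no Ezh2 -/- library reached a control in CPM. The counts there were few, with 9, 7, 6 and 6 of Cd5, 8, 12, 8 and 8 of Cd6 and 8, 11, 3 and 4 of Themis. Themis had 11 counts in control replicate 2 as well. With V617F in Ezh2 +/+ all 8 T-restricted genes fell, from -1.94 ± 0.57 for Themis to -3.08 ± 0.49 for Bcl11b, and all 8 fell in Ezh2 +/-. Themis lost its V617F call in Ezh2 +/+ without control replicate 5 (edgeR adjusted p = 0.0724) or V617F replicate 4 (0.0587). Cd3d lost its call in Ezh2 -/- without Ezh2 -/- replicate 3 (0.057), and Cd3g (0.0504), Bcl11b (0.0593) and, among the granule genes, Gzmb (0.052) lost theirs without the 3 libraries that stood apart.

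**Figure D2:**
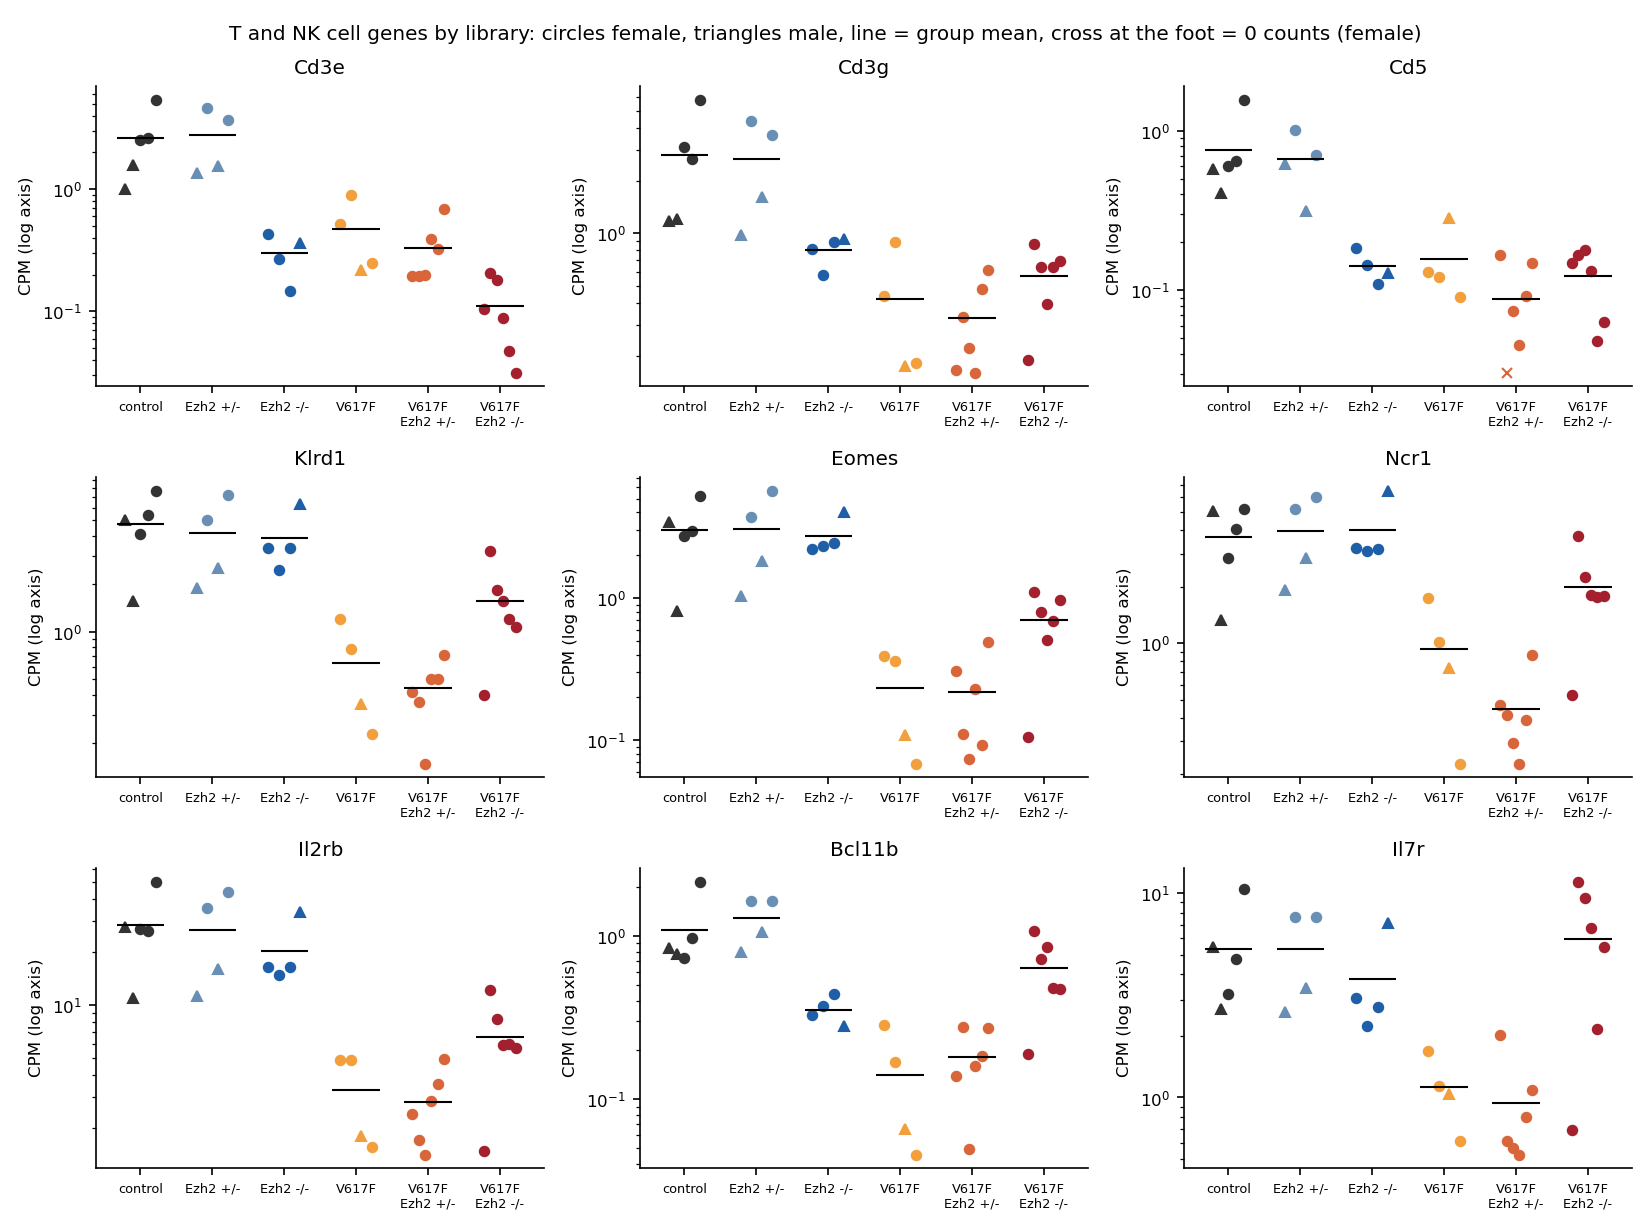
CPM on a log axis in each of the 29 libraries for 3 T-restricted genes (top), 3 NK-restricted genes (middle) and Il2rb, Bcl11b and Il7r (bottom), with circles for female and triangles for male libraries, a line at the group mean and a cross at the foot for the library with 0 Cd5 counts. Cd3e, Cd3g and Cd5 were lower in all 4 Ezh2 -/- libraries than in any control, whereas Klrd1, Eomes and Ncr1 overlapped with the controls there and were low with V617F in Ezh2 +/+ and Ezh2 +/-.

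Bcl11b, the factor of T lineage commitment, changed in opposite directions with Ezh2 loss on the 2 backgrounds. It measured 0.838, 0.771, 0.733, 0.966 and 2.15 CPM in controls and 0.325, 0.371, 0.439 and 0.279 CPM in Ezh2 -/-, without overlap (-1.71 ± 0.43, edgeR adjusted p = 0.00512). With V617F it measured 0.285, 0.169, 0.0653 and 0.0456 CPM in Ezh2 +/+ and a lowest value of 0.19, a median of 0.599 and a highest value of 1.08 CPM in Ezh2 -/-, of which replicate 1 was the lowest. In that background Ezh2 loss thus came with more Bcl11b RNA (2.03 ± 0.48, edgeR adjusted p = 0.00316), the reverse of its direction without V617F. The difference between both effects was tested as the interaction and was 3.75 ± 0.64 (edgeR adjusted p = 0.00347). Bcl11b was the 1 of 9 genes called in the interaction that stayed called under every alternative fit. The levels were low throughout, with 23 Bcl11b counts over the 4 V617F libraries and 171 over the 6 V617F Ezh2 -/- libraries.

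Of the 10 NK-restricted and cytotoxic genes, 2 fell in Ezh2 -/- MEPs without V617F, the granule genes Nkg7 and Gzmb, while the other 8 (Ncr1, Klrd1, Klrk1, Gzma, Prf1, Eomes, Tbx21 and Xcl1) changed by -0.37 to 0.13 with a median of -0.02, and 0 of these 8 were called under any of the 38 fits run. By DESeq2 it was also 2 of the 10, and at an unadjusted p under 0.05 it was 2. Klrd1, the CD94 chain of the NKG2 receptors, measured 5.03, 1.56, 4.13, 5.41 and 7.7 CPM in controls and 3.36, 2.43, 3.37 and 6.34 CPM in Ezh2 -/-. Klrk1, the activating receptor NKG2D, measured 7.39, 2.72, 4.68, 7.17 and 11.3 CPM in controls and 5.29, 4.33, 5.2 and 11.5 CPM in Ezh2 -/-. For both genes the 4 Ezh2 -/- libraries lay within or near the range of the controls, the male replicate 4 was the highest of them, and the male control replicate 2 was the lowest control. The changes were -0.23 ± 0.49 for Klrd1 and 0.04 ± 0.49 for Klrk1 (edgeR adjusted p = 0.757 and 0.961). Ncr1, the NK receptor NKp46, and Eomes were chosen after their values were seen, as defining markers, and measured 3.7 ± 1.62 and 3.03 ± 1.58 CPM (SD, n = 5) in controls and 4 ± 1.67 and 2.74 ± 0.854 CPM (SD, n = 4) in Ezh2 -/-.

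The NK values moved with that male library. Without Ezh2 -/- replicate 4 the median change of the 8 genes was -0.83 (range -1.03 to -0.49) and that of the 8 T-restricted genes -2.45, and among female libraries alone the medians were -0.77 and -2.56. Over all fits the NK median ran from -0.83 to 0.25 and the T-restricted median from -2.56 to -1.67. In each of these fits 0 of the 8 NK genes and 5 to 8 of the 8 T-restricted genes were called. The difference between both gene groups was not itself tested.

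The granule genes Nkg7 and Gzmb fell with Ezh2 loss and did not pass with V617F in Ezh2 +/+. Their place among the NK genes is by textbook, and they did not follow the NK receptors in every library. In V617F Ezh2 +/- replicates 1 and 5 Nkg7 was at 64.8 and 67.3 CPM and Gzmb at 6.57 and 5.31 CPM. Ncr1 was at 0.471 and 0.391 CPM there and Klrd1 at 0.416 and 0.505 CPM. Their fall in Ezh2 -/- thus need not be a fall of NK cell RNA. Nkg7 measured 31.1, 29.7, 36.1, 32 and 62.5 CPM in controls and 16, 23.7, 17.1 and 22.4 CPM in Ezh2 -/-, so that every Ezh2 -/- library was below every control (-0.97 ± 0.30, edgeR adjusted p = 0.0216). The call was lost without control replicate 5 (0.101), Ezh2 -/- replicate 1 (0.0741) or Ezh2 -/- replicate 3 (0.0944). Gzmb, the protease granzyme B, measured 2.62, 2.7, 3.52, 3.39 and 6.78 CPM in controls and 0.488, 2.45, 1.06 and 1.44 CPM in Ezh2 -/-, again without overlap (-1.50 ± 0.39, edgeR adjusted p = 0.00674). With V617F, Nkg7 measured 37.4, 32, 25 and 29.8 CPM in Ezh2 +/+ and Gzmb 2.33, 2.47, 1.35 and 1.73 CPM, the latter all below the lowest control, and neither passed (-0.35 ± 0.30 and -1.01 ± 0.39, edgeR adjusted p = 0.413 and 0.0566). In V617F Ezh2 -/- Nkg7 had a lowest value of 35.5, a median of 42.5 and a highest value of 58 CPM, above all 4 Ezh2 -/- libraries without V617F (1.05 ± 0.30, edgeR adjusted p = 0.00984). That call was lost without Ezh2 -/- replicate 3 (edgeR adjusted p = 0.0511).

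With V617F the NK receptors and factors were low. In Ezh2 +/+ 7 of the 10 NK-restricted and cytotoxic genes fell and in Ezh2 +/- 8 of 10. Klrd1 measured 1.19, 0.774, 0.348 and 0.228 CPM and Klrk1 1.61, 1.09, 0.544 and 0.388 CPM in the 4 V617F libraries, all below the lowest control. The changes were -2.99 ± 0.56 and -2.95 ± 0.57 (edgeR adjusted p = 0.000529 and 0.000633). Eomes showed the largest fall of the 10 at -3.81 ± 0.65 (edgeR adjusted p = 0.000214), followed by Klrd1, Klrk1, Xcl1 (-2.70 ± 0.53), Tbx21 (-2.69 ± 0.56), Ncr1 (-2.03 ± 0.53) and the pore protein Prf1 (-1.95 ± 0.53). Prf1 (0.0585), and Il7r of the wider group (0.0531), lost this call without the 3 libraries that stood apart. Gzma fell in Ezh2 +/- (-3.46 ± 0.69, edgeR adjusted p = 0.00182) and measured 0.29 ± 0.241 CPM (SD, n = 4) against 0.94 ± 0.62 CPM (SD, n = 5) in Ezh2 +/+ (-1.70 ± 0.67, edgeR adjusted p = 0.0665).

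In the 6 V617F Ezh2 -/- libraries Klrd1 had a lowest value of 0.401, a median of 1.38 and a highest value of 3.23 CPM and Klrk1 a lowest value of 0.76, a median of 2.38 and a highest value of 4.6 CPM, with replicate 1 the lowest and replicate 2 the highest for both. Against V617F Ezh2 +/+ 0 of the 10 NK-restricted and cytotoxic genes passed, with a median change of 1.07, although 6 had an unadjusted p under 0.05 and DESeq2 called 2 (Eomes and Klrk1). Without V617F Ezh2 -/- replicate 1, 5 were higher (Eomes, Gzma, Klrd1, Xcl1 and Klrk1). Against Ezh2 -/- without V617F 5 fell (Eomes -2.26 ± 0.54, Xcl1 -1.69 ± 0.48, Klrk1 -1.64 ± 0.51, Klrd1 -1.56 ± 0.50 and Tbx21 -1.49 ± 0.49). The calls of Klrd1, Klrk1 and Tbx21 were lost without the male Ezh2 -/- replicate 4 (edgeR adjusted p = 0.0824, 0.0737 and 0.0712), as were those of Cd3d (0.0951), Cd247 (0.0677) and Zap70 (0.121).

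The ratio of both defining marker sets was compared library by library. Summed CPM of Cd3d, Cd3e, Cd3g and Cd5 divided by that of Ncr1, Klrb1c, Klrd1 and Eomes was 0.184, 0.657, 0.624, 0.491 and 0.609 in the 5 controls, 0.523, 0.63, 0.421 and 0.395 in Ezh2 +/- and 0.17, 0.129, 0.121 and 0.0806 in Ezh2 -/-. All 4 Ezh2 -/- libraries lay below all controls, although the male control replicate 1 came close. With V617F the ratio was 0.14, 0.472, 0.343 and 0.485 in Ezh2 +/+, had a lowest value of 0.128, a median of 0.441 and a highest value of 0.566 in Ezh2 +/- and a lowest value of 0.111, a median of 0.148 and a highest value of 0.215 in Ezh2 -/-. V617F replicate 1 and V617F Ezh2 +/- replicate 1 lay among the Ezh2 -/- libraries, and the rest of both groups lay near the controls at lower levels of both sums. In these replicates 1 Klrb1c alone held 7.2 of 10.5 and 4.24 of 5.43 CPM of the NK sum. It held 3.03 to 7.92 of 10.9 to 24.8 CPM in Ezh2 -/- and 0.981 to 3.02 of 1.51 to 5.17 CPM in V617F replicates 2, 3 and 4. The 8 markers are a choice made with earlier results known, and they leave out Nkg7 and Gzmb, which fell, and Cd28, which did not pass. With all 8 T-restricted over all 10 NK-restricted and cytotoxic genes, a ratio added after the data were seen, the values were 0.111, 0.145, 0.214, 0.221 and 0.232 in controls and 0.0984, 0.0724, 0.0903 and 0.0727 in Ezh2 -/-, again without overlap. With V617F they were 0.0425 to 0.0899 in Ezh2 +/+, 0.0164 to 0.0649 in Ezh2 +/- and 0.0188 to 0.0634 in Ezh2 -/-, so that these 3 groups overlapped and a low ratio was not particular to Ezh2 -/- there. Nkg7 was the largest member of this NK sum in every library. It held 25 to 37.4 of 28.7 to 47.1 CPM in V617F and 29.7 to 62.5 of 41.2 to 110 CPM in controls. The denominator thus follows Nkg7, which did not pass with V617F in Ezh2 +/+, more than the other NK genes.

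**Figure D3:**
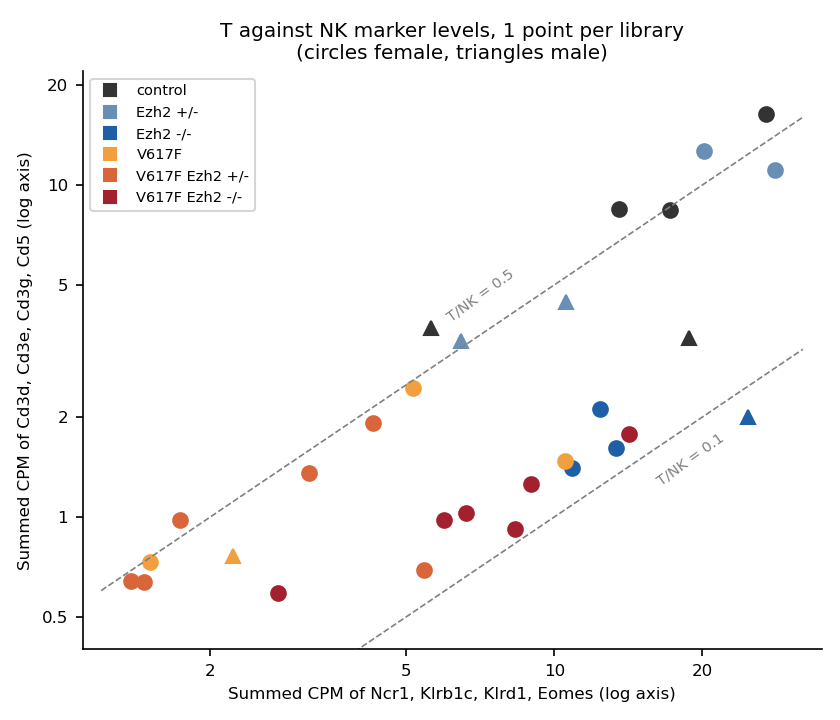
Summed CPM of 4 defining T cell markers (y axis, log) against that of 4 defining NK cell markers (x axis, log), 1 point per library, with dashed lines at T to NK ratios of 0.5 and 0.1. Controls and Ezh2 +/- lie at the upper right near 0.5 except for the male control replicate 1, V617F and V617F Ezh2 +/- mostly lie further down the same line, and the Ezh2 -/- libraries of both backgrounds lie between both lines or just under the lower one.

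All 9 genes shared by T and NK cells fell with V617F in Ezh2 +/+ and Ezh2 +/-. Without V617F 1 of 9 fell in Ezh2 -/-, Cd247, the zeta chain of the T cell receptor that NK receptors use too (-1.10 ± 0.34, edgeR adjusted p = 0.0218). That call was lost without control replicate 5 (0.0805) or Ezh2 -/- replicate 1 (0.0595), 2 (0.0731) or 3 (0.113). Il2rb, the chain through which interleukins 2 and 15 signal, measured 27.8, 11, 27.2, 26.4 and 50.5 CPM in controls and 16.5, 14.9, 16.4 and 34.1 CPM in Ezh2 -/- (-0.40 ± 0.47, edgeR adjusted p = 0.555). With V617F it measured 4.85, 4.88, 1.78 and 1.55 CPM, a fall without overlap (-3.22 ± 0.53, edgeR adjusted p = 0.000186). In V617F Ezh2 -/- a lowest value of 1.48, a median of 5.99 and a highest value of 12.2 CPM were measured, all below Ezh2 -/- without V617F (-1.89 ± 0.48, edgeR adjusted p = 0.00447).

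Cd7, a surface receptor of early T and NK cells, measured 17.9, 10.4, 18.5, 18.7 and 31.7 CPM in controls and 7.14, 6.9, 8.4 and 13.9 CPM in Ezh2 -/-, where 3 of 4 libraries lay below all controls and the male replicate 4 did not (-1.07 ± 0.40, edgeR adjusted p = 0.0556). With V617F it measured 4.33, 3.94, 2.57 and 1.76 CPM in Ezh2 +/+ (-2.66 ± 0.44, edgeR adjusted p = 0.000163). Ccl5 measured 15.1, 4.35, 12.8, 15 and 27.7 CPM in controls, 10.8, 9.95, 12.7 and 23.9 CPM in Ezh2 -/- and 4.28, 1.76, 1.15 and 0.502 CPM with V617F. The Ezh2 -/- libraries overlapped with the controls and the V617F libraries lay below them all (0.02 ± 0.52 and -3.04 ± 0.59, edgeR adjusted p = 0.98 and 0.000742). Lck, the kinase that phosphorylates the CD3 and zeta chains, measured 5.66, 4.13, 9.37, 9.22 and 15.5 CPM in controls, 3.93, 4.55, 4.91 and 7.69 CPM in Ezh2 -/- and 5.73, 3.36, 1.81 and 1.69 CPM with V617F. Its V617F range reached into that of the controls (-1.55 ± 0.40, edgeR adjusted p = 0.00666). The kinase Zap70 (-2.94 ± 0.54), the adhesion receptor Cd2 (-3.06 ± 0.62), the adaptor Skap1 (-2.48 ± 0.58) and the Tec family kinase Txk (-1.25 ± 0.32) completed the 9 of 9 shared genes that fell with V617F in Ezh2 +/+, and 9 of 9 fell in Ezh2 +/- as well.

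The 8 genes of wider expression split. With V617F in Ezh2 +/+ 6 of 8 fell, Tcf7, Ccr9, Id2, Satb1, Ablim1 and Il7r, and Cd27 and Gata3 did not pass. Tcf7, a transcription factor of early T and innate lymphoid cells, measured 14.9, 6.96, 13.6, 14.4 and 29.7 CPM in controls, 7.5, 6.96, 7.52 and 13 CPM in Ezh2 -/- and 3.11, 2.88, 1.72 and 1.05 CPM with V617F. The V617F libraries all lay below the controls (-2.91 ± 0.51, edgeR adjusted p = 0.00027). Id2, which NK and innate lymphoid cells need, measured 13, 7.58, 12.3, 10.4 and 24.4 CPM in controls, 7.63, 6.63, 5.58 and 9.28 CPM in Ezh2 -/- and 4.35, 2.85, 1.83 and 2.17 CPM with V617F (-2.37 ± 0.46, edgeR adjusted p = 0.000685). Ablim1, an actin-binding protein, measured 10.6, 5.65, 13.9, 13.6 and 28.6 CPM in controls, 5.06, 4.59, 6.15 and 13.7 CPM in Ezh2 -/- and 5.31, 4.86, 1.74 and 1.14 CPM with V617F (-2.22 ± 0.59, edgeR adjusted p = 0.00818). In all 3 genes the male Ezh2 -/- replicate 4 was the highest of its group, and in Ezh2 -/- none of them passed (-0.82 ± 0.46, -0.89 ± 0.43 and -0.83 ± 0.56).

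Cd27, a receptor of the tumour necrosis factor family that lymphocytes and early progenitors carry, fell with Ezh2 loss without V617F and did not pass for V617F in Ezh2 +/+. It measured 6.34, 5.81, 9.68, 7.7 and 22.9 CPM in controls, 5.36, 13.1, 5.55 and 16.9 CPM in Ezh2 +/- and 1.81, 2.58, 1.7 and 2.73 CPM in Ezh2 -/-. Every Ezh2 -/- library lay below every control, and the fall was -2.22 ± 0.48 (edgeR adjusted p = 0.00129) and held in every alternative fit. With V617F it measured 29.3, 14.7, 6.38 and 10.2 CPM in Ezh2 +/+ and a lowest value of 7.09, a median of 12.1 and a highest value of 17.5 CPM in Ezh2 -/-, which overlapped (-0.48 ± 0.42, edgeR adjusted p = 0.412). Within Ezh2 -/- MEPs V617F came with more Cd27 (2.12 ± 0.48, edgeR adjusted p = 0.00223), with no overlap between the groups. Gata3 passed in none of the 9 comparisons and measured 2.04 ± 0.916 CPM (SD, n = 5) in controls and 3.1 ± 1.1 CPM (SD, n = 6) in V617F Ezh2 -/-.

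On the V617F background 4 of the 35 genes were higher with Ezh2 loss, where 13% of all tested genes were. Il7r, the interleukin 7 receptor chain of lymphoid progenitors, T cells and innate lymphoid cells, measured 1.68, 1.14, 1.04 and 0.616 CPM in V617F and a lowest value of 0.696, a median of 6.11 and a highest value of 11.4 CPM in V617F Ezh2 -/- (2.37 ± 0.62, edgeR adjusted p = 0.00701). Tcf7 rose from 3.11, 2.88, 1.72 and 1.05 CPM to a lowest value of 1.71, a median of 7.95 and a highest value of 13 CPM (1.63 ± 0.48, edgeR adjusted p = 0.0153). Replicate 1 of V617F Ezh2 -/- lay within the V617F range for both genes and the others lay above it. The chromatin organiser Satb1 rose from 2.57, 2.44, 1.2 and 1.07 CPM to a lowest value of 4.39, a median of 6.72 and a highest value of 8.54 CPM without overlap (1.74 ± 0.45, edgeR adjusted p = 0.00699), and Bcl11b is given above. In these libraries B cell markers rose as well, in 10 of 15 tested, and their part in the Il7r, Tcf7, Satb1 and Bcl11b values was not tested. The recombinase gene Rag1 was at 0.0218 to 0.895 CPM in V617F and at 0.274 to 10.6 CPM in V617F Ezh2 -/-, where replicate 1 was the lowest. The calls were few and moved with the libraries used. Without V617F Ezh2 -/- replicate 1 there were 12 of 35, without V617F replicate 1 there were 11, and in a fit of the 2 groups alone 1 (Satb1), where Bcl11b, Il7r and Tcf7 had adjusted p-values of 0.0526, 0.0535 and 0.0634 and Cd3e was not tested. Tcf7 was also lost without V617F replicate 4 (0.0805).

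The interaction asked whether the V617F effect differed between Ezh2 -/- and Ezh2 +/+. It was above 0, that is, V617F lowered the gene less or raised it, for Bcl11b, Il7r (2.82 ± 0.85), Themis (2.61 ± 0.82), Tcf7 (2.45 ± 0.67), Cd7 (2.03 ± 0.58), Cd3g (1.93 ± 0.65), Id2 (1.90 ± 0.61), Gzmb (1.56 ± 0.54) and Nkg7 (1.40 ± 0.42), with edgeR adjusted p-values from 0.00347 to 0.0446. Of the 10 NK-restricted and cytotoxic genes these are Gzmb and Nkg7, and for the other 8 the values were 0.92 to 1.56. The count rested on single libraries. It was 24 of 35 without Ezh2 -/- replicate 4, 4 without V617F Ezh2 -/- replicate 2, 3 without control replicate 5 or Ezh2 -/- replicate 1, and 1 without control replicate 1, Ezh2 -/- replicate 3 or V617F replicate 4, and DESeq2 called 15. Bcl11b alone was called in all of these fits.

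Loss of a single Ezh2 allele left these genes without a call. Without V617F 0 of 35 passed, with 0 at an unadjusted p under 0.05 and 0 by DESeq2, and 0.0144% of all genes were called in either direction. With V617F 0 of 35 passed, with 4 at an unadjusted p under 0.05 and 0 by DESeq2, and 0.00718% of all genes were called. The interaction of V617F with Ezh2 +/- gave 0 of 35, with 1 at an unadjusted p under 0.05 and 0 by DESeq2, and 0% of all genes. For Il2rb the values were 11.2, 35.6, 16.1 and 43.9 CPM in Ezh2 +/- and a lowest value of 1.4, a median of 2.61 and a highest value of 4.96 CPM in V617F Ezh2 +/-, overlapping with the matching Ezh2 +/+ groups, and the V617F effect within Ezh2 +/- was -3.42 ± 0.48 (edgeR adjusted p = 5.73e-05). Leaving out control replicate 5 and Ezh2 +/- replicates 2 and 5 takes libraries with much Cd34 from the side without V617F alone, while V617F Ezh2 +/- replicates 5 and 6 (62.2 and 42.1 CPM) stay, and it leaves 2 male Ezh2 +/- libraries against 6 female ones. In that fit the 31 V617F calls in Ezh2 +/- came down to 1, with 28 at an unadjusted p under 0.05 and a median log2 fold change of -2.02.

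Other genes of the same pathways moved less uniformly. Of 33 further genes of the T cell receptor pathway 30 were tested. In Ezh2 -/- without V617F 4 fell, among them the receptor adaptor Trat1 (-2.15 ± 0.42), the exchange factor Vav1 (-0.59 ± 0.15) and the adaptor Lcp2 (-1.25 ± 0.33), and 0 rose. With 12.2% of all tested genes lower, 4 of 30 is near the background. With V617F in Ezh2 +/+ 13 fell (13.9% of all genes), led by the common gamma chain Il2rg (-1.17 ± 0.13), Rasgrp1 (-3.03 ± 0.53) and Ctla4 (-3.36 ± 0.60), and the kinase Prkcq rose (0.52 ± 0.18). In V617F Ezh2 -/- against V617F, 12 rose (13% of all genes) and 0 fell, led by Il2rg (0.69 ± 0.13), Grap2 (1.41 ± 0.33) and Prkcq (0.71 ± 0.18). Many of these are also used by myeloid, B or megakaryocytic cells. Of 31 further NK genes 28 were tested. In Ezh2 -/- without V617F 0 passed, with 3 at an unadjusted p under 0.05 and 1 by DESeq2. With V617F 21 fell in Ezh2 +/+ and 20 in Ezh2 +/-, led in Ezh2 +/+ by the receptors Klri2 (-3.15 ± 0.57), Klra4 (-3.50 ± 0.68) and Klre1 (-2.97 ± 0.58), and in Ezh2 -/- 12 fell and 3 rose, where 22.5% of all tested genes fell and 19.1% rose. The Klra genes are near-identical copies of each other, so single members are uncertain.

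**Figure D4:**
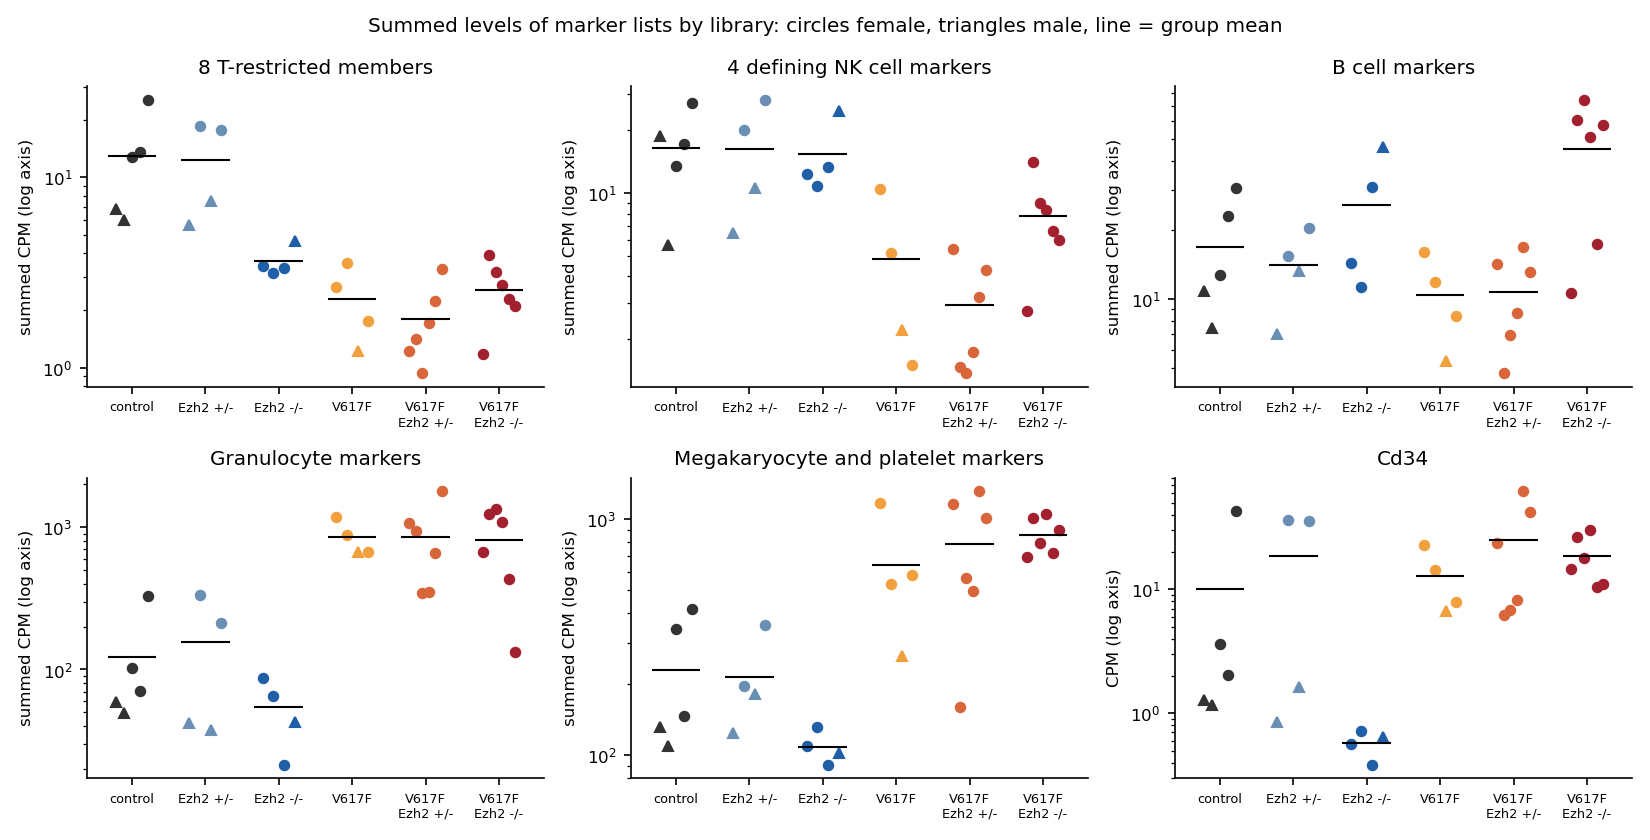
Summed CPM (log axis) of the 8 T-restricted genes, the 4 defining NK cell markers, and lists of B cell, granulocyte and megakaryocyte and platelet markers, and CPM of Cd34, in each library by group, with circles for female and triangles for male libraries and a line at the group mean. All V617F Ezh2 +/+ libraries lie above every control in the granulocyte sum and below every control in the T-restricted sum, and the B cell sum of 5 of the 6 V617F Ezh2 -/- libraries lies above every V617F library.

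Markers of other cell types moved with the same groups, and their part in the results was not tested. With V617F in Ezh2 +/+, where 13.9% of all tested genes fell and 9.73% rose, 12 of 13 granulocyte markers and 8 of 12 tested megakaryocyte and platelet markers rose. In that comparison 0 of either list fell. The granulocyte sum ranged from 49.1 to 330.0 CPM in controls and from 665 to 1180.3 CPM with V617F. The megakaryocyte and platelet sum ranged from 109.7 to 418 CPM and from 264 to 1179 CPM. Monocyte, macrophage and dendritic markers fell in 9 of 14 and rose in 2, with sums of 180.0 to 529 CPM in controls and 113 to 199.9 CPM with V617F. B cell markers fell in 4 of 15 with V617F, and their sums were 7.46 to 30.7 and 5.33 to 16.1 CPM. In Ezh2 -/- without V617F 5 of 14 monocyte, macrophage and dendritic markers, 2 of 5 mast cell and basophil markers, 3 of 12 megakaryocyte and platelet markers and 5 of 13 stem and multipotent progenitor markers were lower and 1 stem marker higher, and 0 of 15 B cell markers passed. Over all tested genes 12.2% were lower and 11.5% higher there, so small counts in short lists are not far from the background. The sum of all 10 NK-restricted and cytotoxic genes was 41.2 to 110.2 CPM in controls, 28.7 to 47.1 CPM with V617F in Ezh2 +/+, 21.8 to 75.3 CPM in Ezh2 +/- and 46.5 to 70.9 CPM in Ezh2 -/-, all overlapping with controls. Nkg7 was the largest member of each of these sums, so they say little of the other NK genes. Erythroid markers summed to 5550.4 to 7136 CPM in controls, 6553 to 7837 CPM in Ezh2 -/- and 5783 to 7389 CPM with V617F in Ezh2 +/+. They summed to 4806 to 8821 CPM in V617F Ezh2 +/- and to 4327 to 5457 CPM in V617F Ezh2 -/-. All V617F Ezh2 -/- libraries thus lay below every control, every V617F Ezh2 +/+ and every Ezh2 -/- library without V617F. Early T and innate lymphoid genes, apart from the 35, fell in 0 of 11 and rose in 1 (Rag2) in Ezh2 -/-, and fell in 1 of 11 (Il1rl1) with V617F. Both single calls are near the share over all genes.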

How the data were processed

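RNA of 29 libraries was measured by RNA sequencing. Per the labels' protocols, total RNA came from 230000 sorted MEPs per sample and was extracted with Trizol-LS. The deposited values are counts per gene, not normalized by the authors, with Entrez identifiers and gene lengths in the same files. Symbols were matched to the Entrez identifiers from RefSeq. STAR and the mm9 build are named per the submitters' processing notes. Not given in the sources used here were the version of STAR, the counter, the annotation and strand. Reads of overlapping genes on opposite strands cannot be told apart. Of 18834 genes, 62 found no symbol there. They held 0.884 to 2.68% of the counts, stayed in the library totals and the fit, and are not named here.

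Counts were tested for all genes at once with edgeR 4.0.16 (quasi-likelihood test, TMM scaling factors of 0.95 to 1.093, minimum count 10 and minimum total 15, R 4.3.3). One model held the 6 genotype groups and sex (22 residual degrees of freedom, a biological coefficient of variation of 18.1%), and p-values were adjusted by the Benjamini-Hochberg method over 13928 genes with a threshold of 0.05. Fold changes are log2 values with their standard errors. CPM (counts scaled by library size and TMM factor) were computed from the deposited counts, and tables and figures were made with Python 3.11.15, pandas 2.3.3 and matplotlib 3.10.9. The procedure was tested on simulated data. No 2 libraries were alike (lowest chi-square per degree of freedom 4.71). Alternatives were DESeq2 1.42.0, another scaling, no count filter, no sex term, female libraries alone, a replicate block, the compared groups alone, 3 libraries left out together, and each of 29 libraries left out in turn. The closing section gives their effect.

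Full values are given for the 4 genes of each role with the highest mean CPM over all libraries, fold changes for genes past the threshold, and up to 3 genes per direction of other lists by lowest adjusted p. Values of Cd5, Eomes, Ncr1, Bcl11b, Il7r, Satb1, Gzma and Gata3 were added after they had been seen, as were the role medians without single libraries. The 35 genes, their roles and the other lists were chosen with earlier results of these data known. Promoters came from RefSeq on GRCm38.p6, another build than that of the counts, and were matched by gene only.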

Additional observations from a re-analysis of the deposited data

Results flagged for a closer look

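In 6 of the 96 groups of 4 to 6 libraries examined, over the 16 genes given in full, the highest library stood far from the others by Dixon's criterion. Chance gives about 1 in 20, or 4.8 groups, so 6 is near the number expected. The groups reuse the same libraries and are not independent. Control replicate 5 stood apart for Nkg7 (62.5 CPM), Gzmb (6.78 CPM) and Cd27 (22.9 CPM). The male Ezh2 -/- replicate 4 stood apart for Klrk1 (11.5 CPM), Il2rb (34.1 CPM) and Tcf7 (12.99 CPM).

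The V617F effect differed between Ezh2 -/- and Ezh2 +/+ MEPs for 9 of the 35 genes by the interaction term (edgeR adjusted p under 0.05). On the log2 scale the difference was 3.75 for Bcl11b, 2.82 for Il7r, 2.61 for Themis and 2.45 for Tcf7. It was 2.03 for Cd7, 1.93 for Cd3g, 1.90 for Id2, 1.56 for Gzmb and 1.40 for Nkg7. These counts moved strongly with the libraries used, and Bcl11b alone was called in every fit.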

How the results depend on the processing

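No called gene changed direction under the 37 alternative fits of the 9 comparisons. The median of the 8 NK genes other than Nkg7 and Gzmb, of which 0 were called, turned from -0.02 to 0.25 for Ezh2 -/- without V617F when control replicate 5 and Ezh2 +/- replicates 2 and 5 were left out. Without those 3 libraries, the genes called were 6 in place of 11 for Ezh2 -/- without V617F, 1 in place of 31 for V617F in Ezh2 +/-, and 4 in place of 9 for the interaction with Ezh2 -/-. With female libraries alone, 7 in place of 15 were called for V617F in Ezh2 -/- and 1 in place of 9 for the interaction. With only the compared groups in the fit, 1 in place of 5 was called for Ezh2 -/- with V617F and 8 in place of 15 for V617F in Ezh2 -/-. DESeq2 called 15 in the interaction. The cause was not tested.

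Leaving out each library in turn gave 8 to 19 calls for Ezh2 -/- without V617F, 4 to 12 with V617F, 29 to 31 for V617F in Ezh2 +/+, 31 to 31 in Ezh2 +/-, 9 to 16 in Ezh2 -/- and 1 to 24 for the interaction with Ezh2 -/-, and 0 to 0 for the Ezh2 +/- comparisons and their interaction. In the same order, 5 of 11, 2 of 5, 27 of 30, 1 of 31, 6 of 15 and 1 of 9 genes were called in every fit that tested them. Of the 2 of 5, Cd3e was not tested in the fit of the compared groups alone, and Satb1 was called there.

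Over 62 pairs of libraries with the same replicate number the mean correlation was 0.0239, from -0.64 to 0.88. A mean over so wide a range cannot show whether some pairs share an animal, litter or day. Replicate 5 held 42.7 CPM of Cd34 in controls, 35.5 in Ezh2 +/- and 62.2 in V617F Ezh2 +/-, but 10.5 CPM in V617F Ezh2 -/-. What the numbers mark is not stated. With the replicate number as a block the interaction had 2 calls and V617F in Ezh2 -/- had 16, and the other counts of calls did not change.

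Depth limits genes of low count, among them Cd3e with 31 counts over the 6 V617F Ezh2 -/- libraries and Ccr9 with 18 over the 6 V617F Ezh2 +/- libraries. Cd5, Cd6 and Themis were limited in the same way in Ezh2 -/- without V617F, with 3 Themis counts in replicate 3.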
